A study of Mus musculus with 9 samples.

Results

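Interferon-induced genes are switched on when a cell senses an interferon, and 34 of them were examined here in the proximal colon of 9 mice. The genes were taken by symbol from a list drawn up with earlier results of these arrays known. A probe set, a group of short oligonucleotides read as 1 signal, carries the symbol of the gene alone for 30 of the 34 genes, out of 12393 genes measured in that way on the array. Of those 30 genes 8 had more than 1 probe set, 40 probe sets in all, and the probe set with the highest mean signal over the 9 arrays was used for each gene. Isg15 lies only on a probe set that carries several gene symbols, and no probe set is named here for Ifi44, Ddx58 and Xaf1, so these 4 genes have no value below. Mx2 and Dhx58 were too dim to be tested, which left 28 tested genes.

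The mice differed at Shmt1. It encodes cSHMT, cytosolic serine hydroxymethyltransferase, an enzyme that passes a carbon unit between serine and tetrahydrofolate. There were 3 cSHMT mutant, 3 heterozygous and 3 wild-type mice, 9 weeks old, each with its own Affymetrix array, and the labels call them biological replicates. Every mouse, the wild-type controls included, ate a diet lacking folate and choline after weaning at 3 weeks, for 6 weeks according to the sample characteristics and 5 weeks according to the growth protocol. The mutation had been crossed onto C57Bl/6 for 10 generations, and the labels describe neither the altered allele nor the sex of the mice. The design set mutant and heterozygous colons each against wild-type colons, which asks whether the interferon-induced genes differ with the Shmt1 genotype when folate and choline are lacking.

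Type I interferons bind a receptor whose signal brings a complex that holds STAT2 and IRF9 to the interferon-stimulated response element (ISRE) in the promoters of antiviral genes. Interferon-gamma, made mainly by T and NK cells, acts through the gamma-activated site (GAS) in promoters, and it is the classical inducer of the GBP and IRG GTPases and of Cxcl9. In the healthy gut a low level of this response is known to be kept up by signals from microbes and by resident immune cells.

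Over the whole array, 13576 of 22626 probe sets were bright enough to be tested, with a mean signal above 75.5. The trimmed mean signal lay between 500.1 and 500.2 on every array, and the medians lay between 129.4 and 162.2. Beta-actin gave a ratio of 3′ over 5′ signal, a reading of how far the labelled RNA is shortened, of 4.84 on the mutant, 4.45 on the heterozygous and 5.02 on the wild-type array numbered 1, against 2.52 to 3.75 on the other 6 arrays. Shmt1 followed its labels on the probe set with the clearest separation, with mean signals of 116.7 in mutant, 303.1 in heterozygous and 594.7 in wild-type colons. The colon epithelial markers Fcgbp, Car1 and Slc26a3 read 1028.3 to 7366.3 in every mouse, and Aqp8 read 30.0 to 645.8. Of the genes listed as small intestinal markers, Lct and Apoa4 stayed between 1.7 and 44.6 and Apoa1 between 8.1 and 459.1, but Fabp6 read 1970.0 to 4190.4 and Fabp2 read 5858.7 to 8732.2. With 3 arrays a genotype, the number of arrays sets the precision.

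The interferon-induced genes varied widely between single mice of the same genotype. Their mean normalized signal per mouse, over the 28 tested genes on the log2 scale, was 9.47, 8.35 and 8.18 in mutant 1, 2 and 3, then 7.80, 9.53 and 8.68 in heterozygous 1, 2 and 3, and 9.80, 9.24 and 9.29 in wild-type 1, 2 and 3. Mutant 1 and heterozygous 2 therefore lay between the lowest and the highest wild-type mouse, and the other 4 carriers of the mutation lay below all 3 wild-type mice. In whole colon tissue, fewer cells of a type and less RNA per cell cannot be told apart. Set against the wild-type mean of each gene, the median member stood at 96.3%, 44.9% and 43.8% in the mutant mice, at 28.3%, 104% and 60.5% in the heterozygous mice, and at 123%, 86.8% and 86.8% in the wild-type mice.

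**Figure D1:**
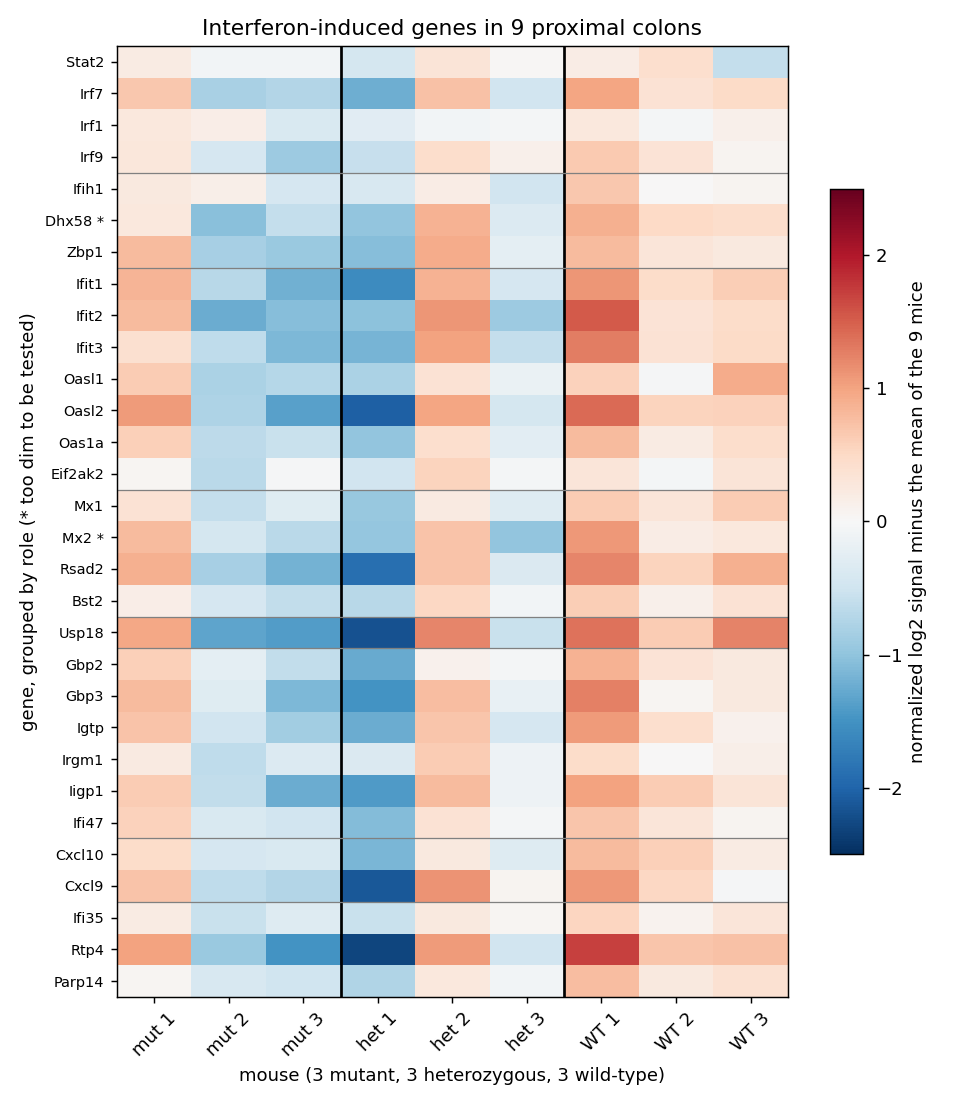
Normalized log2 signal of each interferon-induced gene minus its mean over the 9 mice (colour), with genes in rows grouped by role and mice in columns, mutant left, heterozygous in the middle and wild-type right. Columns tend to share a colour: heterozygous 1 is blue, with a mean deviation over the 28 tested genes of -1.12, and wild-type 1 is mostly red, with a mean deviation of 0.88.

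Counted gene by gene, heterozygous 1 had the lowest signal of all 9 mice for 22 of the 28 genes, and wild-type 1 had the highest for 17. Heterozygous 1 read below all 3 wild-type mice for 28 of 28 genes, mutant 3 for 26, mutant 2 for 25 and heterozygous 3 for 23, against 6 for mutant 1 and 3 for heterozygous 2. Over all probe sets tested, between 17.1% (mutant 2) and 31.1% (mutant 1) read below all wild-type mice in a single carrier mouse. In deposited signal, the 4 lowest mice were heterozygous 1, heterozygous 3, mutant 2 and mutant 3 for 20 of the 28 genes (71.4%). Over all tested probe sets, these 4 mice were the lowest for 0.958%, counted after normalization. The 8 genes with another set of lowest mice in deposited signal were Stat2, Irf1, Irf9, Ifih1, Eif2ak2, Bst2, Cxcl9 and Ifi35. After normalization, Bst2 and Ifi35 had the same 4 lowest mice too. These counts describe the 9 mice, and no test was made of mice picked for their values.

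The spread within a genotype was wide. The residual standard deviation of the fit had a median of 0.616 on the log2 scale over the 28 genes, against 0.173 over all probe sets tested, and 24 of the 28 genes lay among the 5% of probe sets with the widest spread. Between the lowest and the highest mouse of 1 genotype, the median gene differed 2.52-fold in mutant, 2.69-fold in heterozygous and 1.55-fold in wild-type colons, where the median over all probe sets was 1.23-, 1.21- and 1.23-fold. Across all 9 mice the ratio of the highest to the lowest signal had a median of 4.56-fold over the genes, and Irf1 had the smallest, 1.57-fold. It exceeded 10-fold for 5 genes, Rtp4 (20.2-fold), Usp18 (19.0-fold), Oasl2 (13.3-fold), Rsad2 (10.1-fold) and Cxcl9. The lowest Cxcl9 signal, 11.7, lies next to the highest Bacillus control, a probe set that should find no target, at 10.9, so its ratio is not given.

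In mutant against wild-type colons, 27 of the 28 genes had a lower mean in mutant colons, where 49.0% of all probe sets tested did, and their median log2 fold change was -0.73, against 0.0036 over all probe sets. Stat2, at 0.032, was the exception. No gene passed an adjusted p of 0.05 in limma's test, which called 0.0221% of all probe sets, and the adjusted p was 0.998 for each of the 28. At an unadjusted p under 0.05, 6 of the 28 were lower (Irf9, Ifit3, Mx1, Bst2, Ifi35 and Parp14) and 0 were higher, against 1.92% of all probe sets in each direction. After normalization all 3 mutant mice lay below all 3 wild-type mice for 1 gene, Parp14, or 3.57% of the genes, beside 4.19% of all probe sets. In the deposited signals they did so for 5 genes (Ifit3, Mx1, Bst2, Ifi35 and Parp14), 17.9% beside 2.95%. Without mutant 1 the median log2 fold change was -1.13, and without mutant 3 it was -0.50.

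In heterozygous against wild-type colons, 28 of 28 genes had a lower mean in heterozygous colons, beside 51.0% of all probe sets, and the median log2 fold change was -0.83, against -0.0044 over all probe sets. Again 0 genes passed an adjusted p of 0.05 in limma's test, where 0% of all probe sets passed, and the lowest adjusted p was 0.576, for Mx1. At an unadjusted p under 0.05 there were 5 lower genes (Mx1, Rsad2, Gbp2, Cxcl10 and Parp14) and 0 higher, against 3.55% and 4.46% of all probe sets. The 3 heterozygous mice lay below all wild-type mice for Mx1 and Gbp2, 7.14% of the genes, beside 7.42% of all probe sets after normalization and 5.90% in the deposited signals. Without heterozygous 1 the median moved to -0.39, and without the 3 arrays numbered 1 to -0.20, with 21 of 28 genes lower. With array weights, which let arrays that fit less well count less, it was -0.38, with 26 of 28 lower. Both comparisons use the same 3 wild-type mice, so a low or high wild-type mouse enters both.

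In mutant against heterozygous colons, the genes divided, with 12 of 28 lower in mutant colons beside 49.6% of all probe sets, and a median log2 fold change of 0.044. The single values ran from -0.35 (Irf9) to 0.31 (Gbp2). In limma's test 0 genes passed an adjusted p of 0.05, where 0.0221% of all probe sets did, 0 had an unadjusted p under 0.05, beside 7.56% of all probe sets, and the lowest adjusted p was 0.788. The count depended on single mice: 26 of 28 genes were lower in mutant colons without heterozygous 1, 25 without mutant 1, 2 without heterozygous 2, 5 without mutant 3 and 7 without mutant 2. Without the 3 arrays numbered 1, 27 of 28 were lower, with a median of -0.83.

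**Figure D2:**
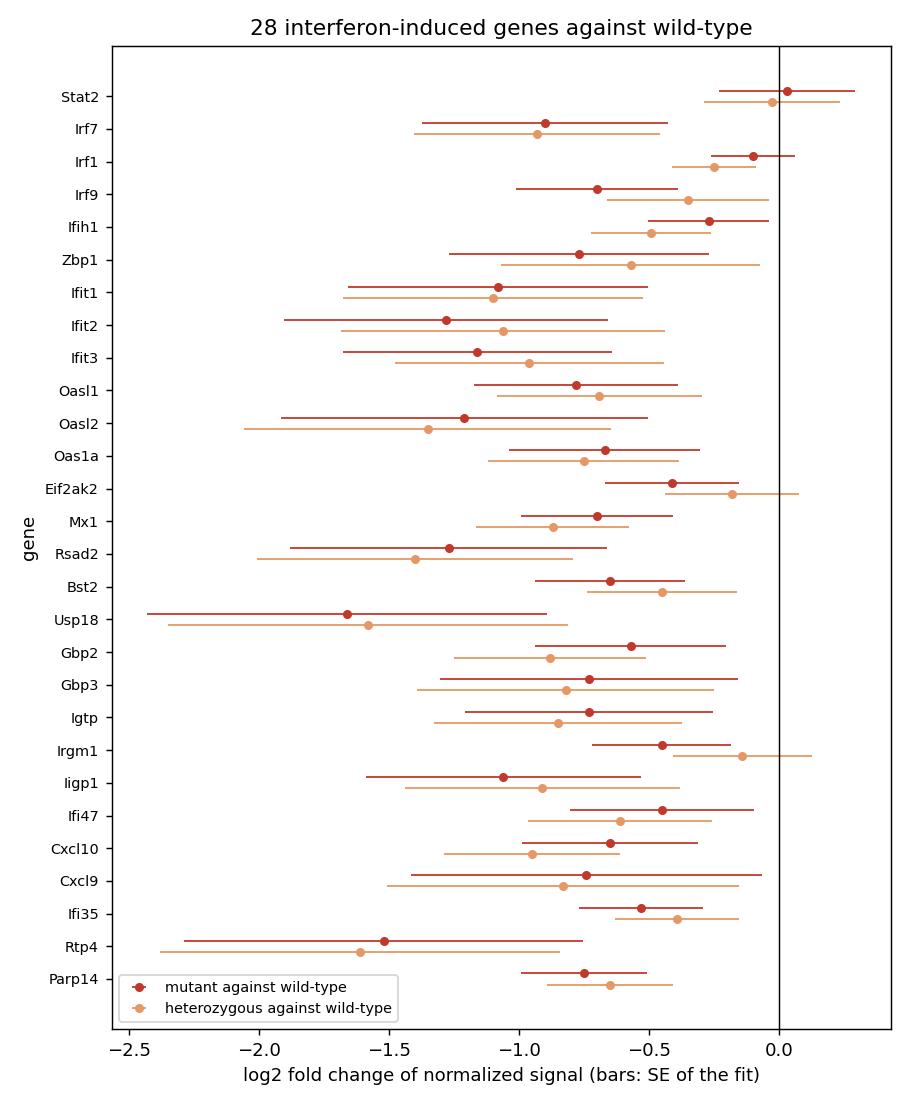
Log2 fold change of the 28 tested genes, mutant against wild-type (red) and heterozygous against wild-type (orange), with bars for the standard error of the fit. All points but that of Stat2 in mutant against wild-type lie left of 0, down to -1.66 for Usp18 and -1.61 for Rtp4, and the widest bars belong to Usp18 and Rtp4, with standard errors of 0.770 and 0.769.

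Among the 4 transcription factors, which carry the interferon signal to the promoters, 3 had a lower mean in mutant and 4 in heterozygous colons than in wild-type colons, with medians of -0.40 and -0.30. Irf7, itself induced by interferon and needed to amplify interferon-alpha production, read 1483.0, 526.8 and 584.0 in mutant mice, 355.1, 1553.3 and 688.4 in heterozygous mice and 1866.0, 1195.2 and 1299.6 in wild-type mice. Mutant 1 and heterozygous 2 lay inside the wild-type range of Irf7 and the other 4 carriers below it. The log2 fold change of Irf7 was -0.90 (SE 0.474) in mutant and -0.93 (SE 0.474) in heterozygous colons against wild-type.

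Irf9, the DNA-binding partner of STAT2 at the ISRE, read 481.4, 318.8 and 240.3 in mutant mice, 258.7, 596.0 and 490.9 in heterozygous mice and 628.4, 555.0 and 469.5 in wild-type mice. Heterozygous 3 stood inside the wild-type range of Irf9, while mutant 2, mutant 3 and heterozygous 1 were below it. On the log2 scale it stood at -0.70 (SE 0.311, unadjusted p = 0.0456, adjusted p = 0.998) in mutant and -0.35 (SE 0.311) in heterozygous colons against wild-type, and the heterozygous value ran from -0.57 to -0.063 when single arrays were left out. Irf1, a transcription factor induced above all by interferon-gamma, had the narrowest range of the 28 genes. It read 1785.5, 1649.1 and 1145.1 in mutant mice, 1182.7, 1407.5 and 1425.3 in heterozygous mice and 1795.8, 1414.8 and 1567.5 in wild-type mice, with log2 fold changes of -0.10 and -0.25 (SE 0.161) in mutant and heterozygous colons against wild-type. The 3 genotypes overlapped for Irf1, and the mutant value turned to 0.10 without mutant 3. Stat2, a subunit of the factor that binds the ISRE, averaged 122.5 ± 6.36 in mutant, 125.8 ± 42.5 in heterozygous and 125.4 ± 48.1 in wild-type colons (SD, n = 3 each).

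Of the nucleic acid sensors, Ifih1 and Zbp1 were tested. Ifih1, the gene of the RNA sensor MDA5, read 1981.3, 1844.5 and 1249.2 in mutant mice, 1216.2, 1876.5 and 1195.1 in heterozygous mice and 2829.9, 1651.8 and 1704.0 in wild-type mice. Only mutant 3, heterozygous 1 and heterozygous 3 lay below the wild-type range of Ifih1, and its log2 fold changes against wild-type were -0.27 in mutant and -0.49 in heterozygous colons (SE 0.231). Zbp1, a sensor of Z-form nucleic acid, read 1316.1, 426.2 and 426.0 in mutant mice, 329.4, 1469.9 and 671.6 in heterozygous mice and 1298.7, 961.9 and 931.2 in wild-type mice. Mutant 1 and heterozygous 2 exceeded every wild-type mouse in deposited signal on this Zbp1 probe set. Its log2 fold changes were -0.77 and -0.57 (SE 0.500) in mutant and heterozygous colons. On the second tested Zbp1 probe set mutant 1, at 159.5, lay below the wild-type range of 161.7 to 240.2. Heterozygous 2, at 232.0, lay inside that range. Leaving out single arrays, the heterozygous log2 fold change of the Zbp1 probe set used ran from -1.10 to -0.11. Dhx58, the gene of the sensor LGP2, was too dim to be tested and read 71.0, 21.6 and 40.5 in mutant mice, 23.9, 137.4 and 53.2 in heterozygous mice and 115.9, 102.4 and 99.1 in wild-type mice.

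The 7 genes whose proteins bind or degrade RNA or block translation held many of the wider differences, with 7 of 7 lower in each carrier genotype and median log2 fold changes of -1.08 in mutant and -0.96 in heterozygous colons against wild-type. The IFIT proteins, whose 3 genes here lie on chromosome 19, bind foreign RNA. Ifit3 read 292.6, 147.8 and 110.6 in mutant mice, 89.4, 507.3 and 167.8 in heterozygous mice and 555.7, 324.6 and 355.6 in wild-type mice, and its log2 fold changes were -1.16 in mutant (SE 0.517, with an unadjusted p of 0.0468 and an adjusted p of 0.998) and -0.96 in heterozygous colons. In deposited signal all 3 mutant mice were below the wild-type range of Ifit3, and after normalization mutant 1 reached into it. Ifit2 read 495.3, 117.2 and 149.4 in mutant mice, 128.0, 681.3 and 167.0 in heterozygous mice and 847.8, 404.1 and 442.3 in wild-type mice, so that 4 carriers stood at 117.2 to 167.0 and every other mouse at 404.1 or above. Its log2 fold changes were -1.28 and -1.06 (SE 0.622) in mutant and heterozygous colons.

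Oas1a encodes an oligoadenylate synthetase, which makes the second messenger that activates RNase L. Its signals were 1774.7, 739.4 and 826.6 in mutant mice, 535.4, 1549.2 and 981.8 in heterozygous mice and 2052.7, 1331.6 and 1540.1 in wild-type mice. Mutant 1 and heterozygous 2 again lay within the wild-type range, and the log2 fold changes of Oas1a were -0.67 and -0.75 (SE 0.367) in mutant and heterozygous colons. The other genes of the group ranged from -1.21 (Oasl2) to -0.41 (Eif2ak2, the gene of the kinase PKR) in mutant and from -1.35 (Oasl2) to -0.18 (Eif2ak2) in heterozygous colons, with Ifit1 and Oasl1 between them.

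The antiviral proteins of the dynamin family and of membranes were represented by Mx1, Rsad2 and Bst2. Mx1, a GTPase that blocks influenza viruses and is defective in many inbred mouse strains, read 283.6, 151.3 and 209.7 in mutant mice, 106.9, 289.5 and 201.1 in heterozygous mice and 338.9, 308.7 and 399.8 in wild-type mice. All 6 carriers were below the 3 wild-type mice in deposited signal for Mx1, and after normalization the 3 heterozygous mice still were. Against wild-type it stood at -0.70 (SE 0.293, unadjusted p = 0.0361, adjusted p = 0.998) in mutant and -0.87 (SE 0.293, unadjusted p = 0.0123, adjusted p = 0.576) in heterozygous colons.

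Rsad2, the gene of viperin, read 1617.5, 495.4 and 401.5 in mutant mice, 208.9, 1456.5 and 703.0 in heterozygous mice and 2115.2, 1302.4 and 1615.3 in wild-type mice, with log2 fold changes of -1.27 in mutant and -1.40 in heterozygous colons (SE 0.609). The heterozygous value had an unadjusted p of 0.0417 and an adjusted p of 0.609. For Rsad2 mutant 1 and heterozygous 2 reached the wild-type range, and heterozygous 1 stood at 12.5% of the wild-type mean. Bst2, the gene of tetherin, which holds budding viruses at the membrane, read 234.7, 167.9 and 160.4 in mutant mice, 124.7, 348.1 and 235.2 in heterozygous mice and 325.8, 261.4 and 319.0 in wild-type mice. Bst2 stood at -0.65 on the log2 scale (SE 0.289, unadjusted p = 0.0449, adjusted p = 0.998) in mutant and -0.45 (SE 0.289) in heterozygous colons, and heterozygous 2 had the highest Bst2 signal of the 9 mice. Mx2, too dim to be tested, read 39.6, 8.6 and 6.1 in mutant mice, 1.9, 42.6 and 1.7 in heterozygous mice and 50.0, 24.7 and 26.9 in wild-type mice.

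Usp18 encodes the protease that removes the ubiquitin-like ISG15 from proteins and also damps the type I receptor. It read 311.2, 56.3 and 58.2 in mutant mice, 23.2, 427.1 and 119.7 in heterozygous mice and 410.9, 280.5 and 440.5 in wild-type mice. The low values of Usp18 were 6.15% of the wild-type mean in heterozygous 1 and 14.9% and 15.4% in mutant 2 and 3, whereas mutant 1 and heterozygous 2 were within the wild-type range. The log2 fold changes were -1.66 in mutant and -1.58 in heterozygous colons (SE 0.770), with adjusted p of 0.998 and 0.635 in limma's test.

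**Figure D3:**
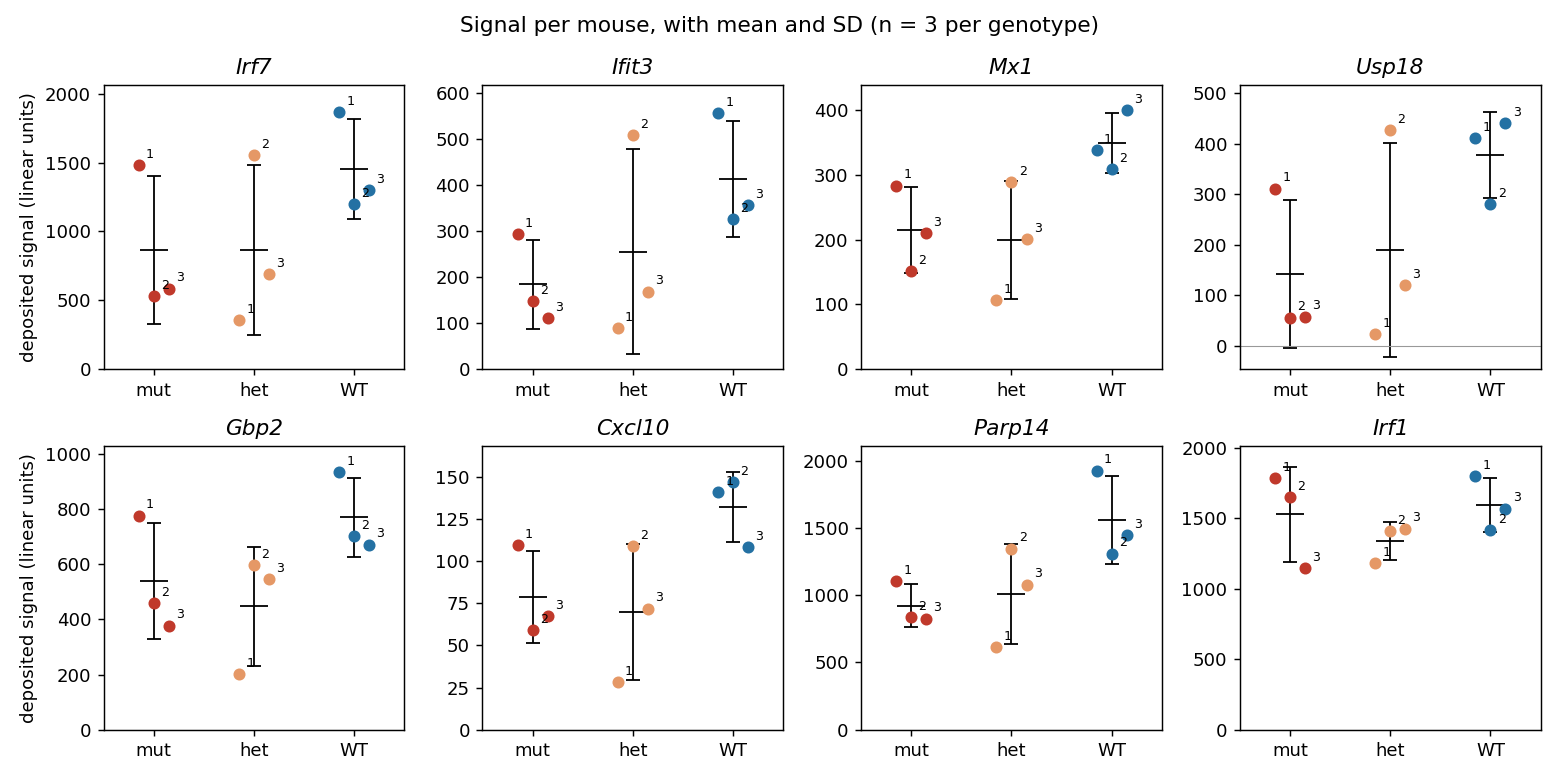
Deposited linear signal of 8 interferon-induced genes in each mouse (points, numbered by replicate), with the mean and SD of 3 mice per genotype, mutant left, heterozygous in the middle and wild-type right. In all panels but that of Irf1, mutant 1 and heterozygous 2 are the highest mice of their genotypes, as for Usp18 with 311.2 and 427.1 against 23.2 to 119.7 in the other carriers.

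The GBP and IRG GTPases, which attack the vacuoles of intracellular microbes and are classical targets of interferon-gamma, had a lower mean for 6 of 6 genes in each carrier genotype, with median log2 fold changes of -0.65 in mutant and -0.83 in heterozygous colons against wild-type. Gbp2 read 776.8, 460.7 and 377.5 in mutant mice, 200.7, 596.2 and 547.1 in heterozygous mice and 935.6, 703.6 and 672.0 in wild-type mice. All 3 heterozygous mice were below the wild-type range of Gbp2 on this probe set, and mutant 1 was inside it. The log2 fold changes were -0.57 (SE 0.368) in mutant and -0.88 (SE 0.368, unadjusted p = 0.0354, adjusted p = 0.601) in heterozygous colons. On the second tested Gbp2 probe set, heterozygous 2, at 413.9, lay inside the wild-type range of 411.5 to 729.5.

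Iigp1, an IRG GTPase, read 401.0, 174.4 and 117.1 in mutant mice, 86.5, 500.5 and 266.3 in heterozygous mice and 520.7, 453.2 and 370.8 in wild-type mice, with log2 fold changes of -1.06 and -0.91 (SE 0.529) in mutant and heterozygous colons. Igtp, another IRG GTPase, also called Irgm3, read 1587.7, 695.3 and 557.0 in mutant mice, 369.7, 1560.3 and 744.0 in heterozygous mice and 2068.4, 1290.2 and 1060.0 in wild-type mice, with log2 fold changes of -0.73 and -0.85 (SE 0.478). On these probe sets of both genes, mutant 1 and heterozygous 2 lay in the wild-type range and the other 4 carriers below it. The second tested Iigp1 probe set read 220.3 to 226.7 in wild-type mice. There mutant 1, at 160.6, lay below that range and heterozygous 2, at 256.5, above it. Gbp3, Irgm1 and Ifi47 had values between -0.73 and -0.45 in mutant and between -0.82 and -0.14 in heterozygous colons.

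The chemokines Cxcl10 and Cxcl9 both draw T cells that carry the receptor CXCR3. Cxcl10 read 109.5, 59.0 and 67.2 in mutant mice, 28.3, 108.8 and 71.8 in heterozygous mice and 140.8, 146.7 and 108.1 in wild-type mice. Mutant 1 and heterozygous 2 just exceeded the lowest wild-type mouse, and Cxcl10 had log2 fold changes of -0.65 (SE 0.339) in mutant and -0.95 (SE 0.339, unadjusted p = 0.0172, adjusted p = 0.584) in heterozygous colons. Cxcl9 read 159.6, 60.0 and 60.3 in mutant mice, 11.7, 255.0 and 119.6 in heterozygous mice and 209.7, 163.4 and 109.5 in wild-type mice. The heterozygous mice thus held both the lowest and the highest Cxcl9 signal of the 9, and the log2 fold changes were -0.74 and -0.83 (SE 0.676) in mutant and heterozygous colons. Without heterozygous 1 the heterozygous value of Cxcl9 turned to 0.070.

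Parp14, an ADP-ribosyltransferase, had the smallest unadjusted p of the 28 genes. It read 1105.3, 836.4 and 825.4 in mutant mice, 611.6, 1345.4 and 1077.2 in heterozygous mice and 1925.3, 1307.8 and 1444.1 in wild-type mice. Its 3 mutant mice were all below the wild-type range, as were heterozygous 1 and 3. Against wild-type, Parp14 stood at -0.75 on the log2 scale (SE 0.242, unadjusted p = 0.0102, adjusted p = 0.998) in mutant and -0.65 (SE 0.242, unadjusted p = 0.0205, adjusted p = 0.584) in heterozygous colons.

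Ifi35 read 277.2, 171.5 and 224.2 in mutant mice, 158.5, 323.7 and 285.0 in heterozygous mice and 341.9, 288.0 and 344.9 in wild-type mice, with log2 fold changes of -0.53 (SE 0.239, unadjusted p = 0.0499, adjusted p = 0.998) and -0.39 (SE 0.239) in mutant and heterozygous colons. Rtp4, named as a receptor transporter protein, read 964.1, 257.4 and 183.1 in mutant mice, 81.6, 1080.6 and 371.9 in heterozygous mice and 1647.9, 826.6 and 869.6 in wild-type mice. The log2 fold changes of Rtp4 were -1.52 and -1.61 (SE 0.769), and heterozygous 1 stood at 7.32% of the wild-type mean. For Rtp4 mutant 1 and heterozygous 2 were again inside the wild-type range.

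Members known above all as interferon-gamma targets (Irf1, Gbp2, Gbp3, Cxcl9, Igtp, Irgm1, Iigp1 and Ifi47) were set beside the other 20 tested genes. Their median log2 fold changes were -0.65 in mutant and -0.83 in heterozygous colons against wild-type, and those of the other 20 were -0.76 and -0.81. The mean level per mouse of the 8 gamma targets, 9.58, 8.62 and 8.29 in mutant mice, 7.86, 9.56 and 8.90 in heterozygous mice and 9.85, 9.29 and 9.17 in wild-type mice, placed the same mice low and high as that of the other 20 genes, 9.43, 8.25 and 8.13, then 7.78, 9.51 and 8.59, and 9.79, 9.22 and 9.33. A second tested probe set was available for 5 genes (Gbp2, Eif2ak2, Rsad2, Iigp1 and Zbp1), and it had a lower mean in both carrier genotypes for 5 of 5, from -1.33 to -0.32 in mutant and from -1.15 to -0.34 in heterozygous colons, with 0 called.

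Promoter sequences are shown because the ISRE is the element through which type I interferons are known to act on genes of this kind. RefSeq promoter windows of GRCm38.p6, from 250 bases before to 50 bases after the transcript start, were found for 26 of the 34 genes. In each role group, the brightest tested gene with an ISRE core match, where there was one, is printed 5′ to 3′ on the strand of the gene, and capitals mark bases that match the core GAAANNGAA on either strand, where overlapping matches run together. The windows are chr10:128270248-128270547 (plus strand) for Stat2, chr2:62646206-62646505 (minus strand) for Ifih1, chr19:34640639-34640938 (plus strand) for Ifit1, chr12:26456403-26456702 (minus strand) for Rsad2, chr11:58199306-58199605 (plus strand) for Igtp and chr5:92328030-92328329 (minus strand) for Cxcl9.
Stat2: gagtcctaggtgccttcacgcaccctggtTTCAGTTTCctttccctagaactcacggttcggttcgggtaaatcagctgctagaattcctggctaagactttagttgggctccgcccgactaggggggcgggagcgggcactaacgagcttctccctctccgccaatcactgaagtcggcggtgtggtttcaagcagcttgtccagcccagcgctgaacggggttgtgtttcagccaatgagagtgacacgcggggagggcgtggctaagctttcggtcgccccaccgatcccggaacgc
Ifih1: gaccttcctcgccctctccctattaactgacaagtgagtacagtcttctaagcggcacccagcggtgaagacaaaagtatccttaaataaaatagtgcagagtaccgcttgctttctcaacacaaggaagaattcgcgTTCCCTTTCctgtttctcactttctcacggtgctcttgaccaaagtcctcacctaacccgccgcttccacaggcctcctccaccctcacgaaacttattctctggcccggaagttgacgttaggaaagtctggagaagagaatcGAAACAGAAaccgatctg
Ifit1: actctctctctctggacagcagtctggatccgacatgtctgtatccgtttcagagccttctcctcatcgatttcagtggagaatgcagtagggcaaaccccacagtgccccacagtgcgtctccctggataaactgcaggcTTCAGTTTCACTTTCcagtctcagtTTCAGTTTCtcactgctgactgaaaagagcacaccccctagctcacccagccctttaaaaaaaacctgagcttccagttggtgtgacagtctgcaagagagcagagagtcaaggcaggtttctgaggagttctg
Rsad2: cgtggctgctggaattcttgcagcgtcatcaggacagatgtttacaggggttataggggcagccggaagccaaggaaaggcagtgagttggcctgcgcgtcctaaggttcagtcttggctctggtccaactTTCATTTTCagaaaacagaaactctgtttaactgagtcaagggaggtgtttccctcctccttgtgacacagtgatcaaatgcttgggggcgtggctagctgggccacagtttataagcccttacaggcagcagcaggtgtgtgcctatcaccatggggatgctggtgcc
Igtp: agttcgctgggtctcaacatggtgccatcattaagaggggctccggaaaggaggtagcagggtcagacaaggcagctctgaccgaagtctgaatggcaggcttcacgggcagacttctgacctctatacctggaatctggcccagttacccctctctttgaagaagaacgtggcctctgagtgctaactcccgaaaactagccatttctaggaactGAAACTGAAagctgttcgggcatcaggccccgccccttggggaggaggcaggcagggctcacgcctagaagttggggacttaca
Cxcl9: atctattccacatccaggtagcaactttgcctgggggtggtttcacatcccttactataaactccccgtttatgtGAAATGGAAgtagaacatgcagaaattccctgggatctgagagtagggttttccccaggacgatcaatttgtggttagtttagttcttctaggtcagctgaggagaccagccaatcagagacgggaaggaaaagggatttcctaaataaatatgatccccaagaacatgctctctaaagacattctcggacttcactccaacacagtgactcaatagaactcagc

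The ISRE core lay in the window of 17 of the 26 genes (65.4%), against 9.76% of the 27025 genes in the promoter table. The GAS motif, TTCNNNGAA on either strand, lay in 7 of 26 (26.9%), against 9.55% of genes. Ifit1 held 3 ISRE core matches, of which 2 overlap, and Ifih1 held 2, and the other 4 printed promoters held 1 each. By group, 5 of the 7 gamma targets with a window and 12 of the other 19 held the ISRE core. The GAS motif lay in 2 of these 7 gamma targets and in 5 of the other 19. In Bst2 a GAS match overlaps an ISRE core match. Irf7, Irf9, Oasl1, Oasl2, Ifi47 and Xaf1 held neither motif in any window of theirs, which says only that these letters are not there. A match is a description of the sequence, and binding was not measured.

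**Figure D4:**
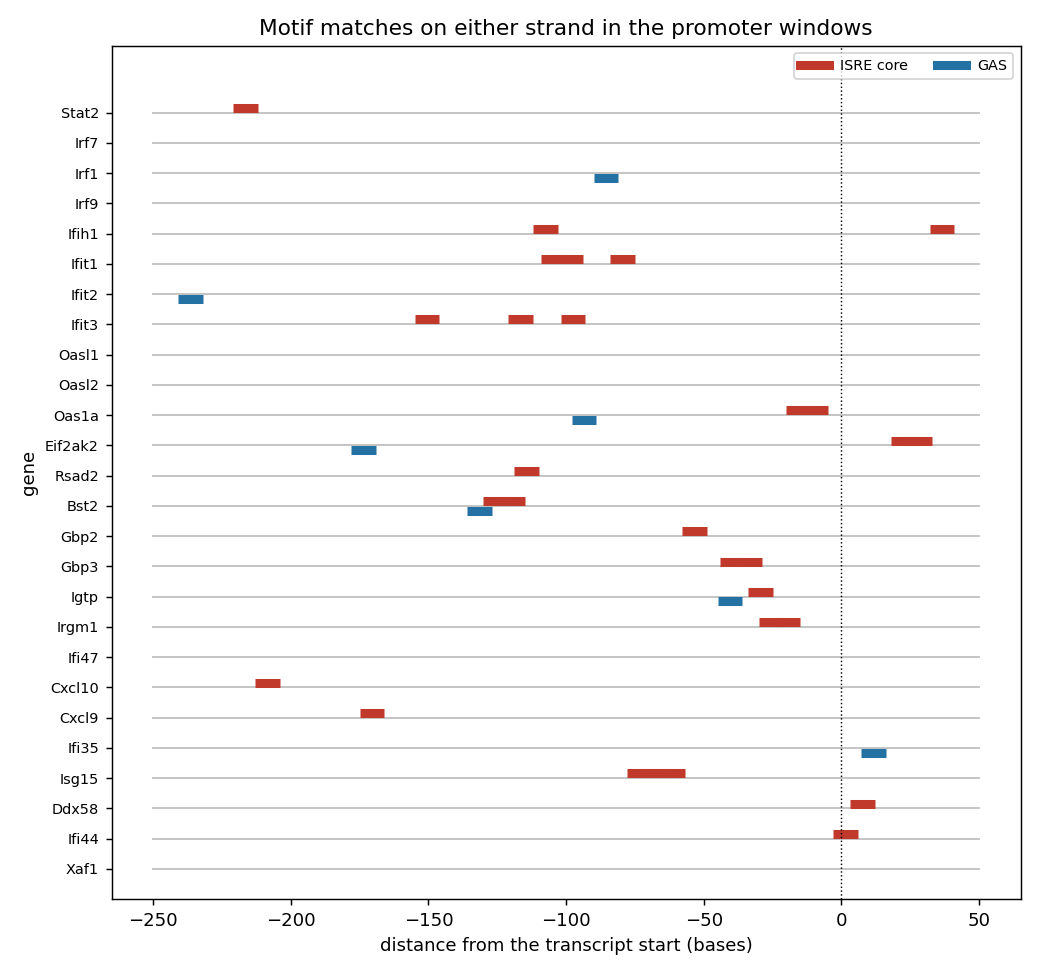
Matches of the ISRE core (red, above each line) and of the GAS motif (blue, below) in the promoter windows of 26 interferon-induced genes, by distance in bases from the transcript start. Of these genes 17 hold the ISRE core, mostly upstream of the start, and 7 hold the GAS motif.

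The interferons themselves were too dim to be tested. Of 18 interferon genes listed, 9 had a probe set, and their signals ran from 0.1 to 20.2, where the Bacillus control probe sets, which should find no target, reached up to 10.9. Ifng, the gene of interferon-gamma, read 15.1, 8.1 and 3.4 in mutant mice, 0.7, 10.1 and 9.3 in heterozygous mice and 14.8, 10.1 and 9.0 in wild-type mice, near that background.

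Genes upstream of the response had much the same mean level in each mouse. The 13 tested receptors and signalling genes (Ifnar1, Ifngr1 and Jak1 had the smallest p) had median log2 fold changes of 0.045 in mutant and -0.012 in heterozygous colons against wild-type, 0 called, and a mean level per mouse between 8.81 and 8.93 in mutant, 8.81 and 8.84 in heterozygous and 8.78 and 8.96 in wild-type mice. The 11 tested inducers of interferon, with Irf2, Tlr3 and Irf8 leading by p, had medians of 0.015 and -0.12 and 0 called. Irf2 had an unadjusted p of 0.0218 in heterozygous against wild-type, with a log2 fold change of 0.29.

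A list of 45 further interferon-induced genes, of which 29 were tested, had a lower mean for 28 of 29 in mutant and 24 of 29 in heterozygous colons, with median log2 fold changes of -0.29 and -0.37 and 0 called. At an unadjusted p under 0.05, 5 and 3 of the 29 were lower, beside 1.92% and 3.55% of all probe sets, and Tdrd7, Gbp7 and Isg20 had the smallest p. Their mean level was 9.16, 8.81 and 8.68 in mutant mice, 8.61, 9.30 and 8.93 in heterozygous mice and 9.51, 9.13 and 9.19 in wild-type mice. After normalization all 3 mice lay below all 3 wild-type mice for 9 of the 29 in mutant and 3 in heterozygous colons, beside 4.19% and 7.42% of all probe sets. The antigen presentation genes that interferon also induces were lower for 15 of 15 in mutant and 14 of 15 in heterozygous colons, with medians of -0.32 and -0.14 and 0 called, and Tap2, Psme1 and Cd74 had the smallest p. Of these 15, 5 in mutant and 1 in heterozygous colons were lower at an unadjusted p under 0.05 in limma's test. For 7 and 3 of the 15 the mice of the genotype lay below all wild-type mice. In both lists, heterozygous 1 was the lowest mouse and wild-type 1 the highest.

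**Figure D5:**
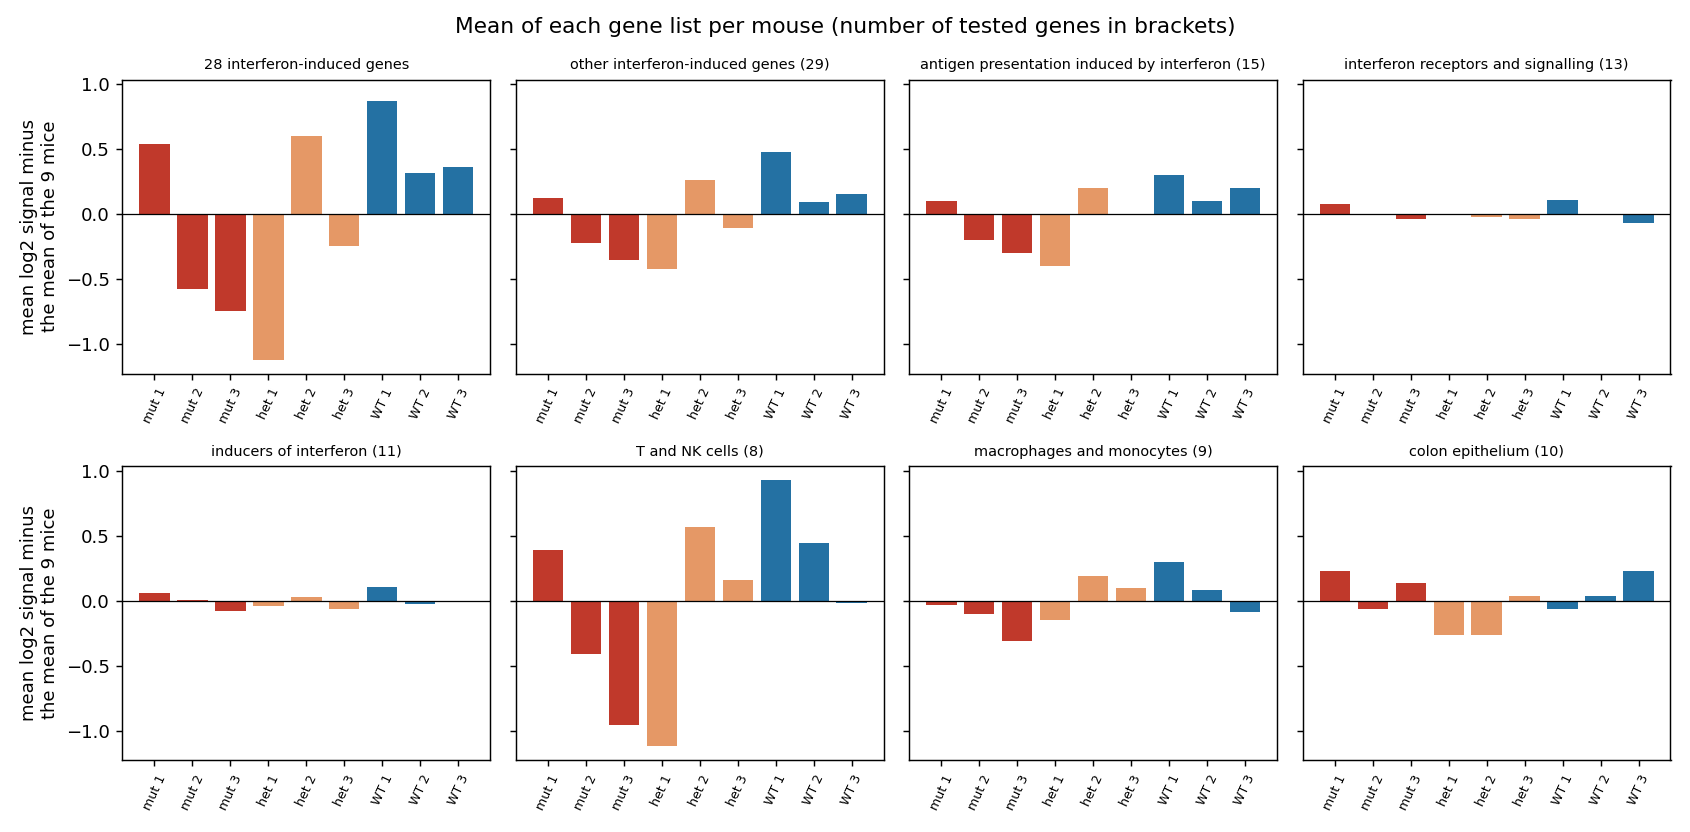
Mean normalized log2 signal of each gene list per mouse minus its mean over the 9 mice, with mutant mice left, heterozygous mice in the middle and wild-type mice right. The 28 interferon-induced genes range from -1.12 in heterozygous 1 to 0.88 in wild-type 1, while receptors and inducers stay near 0. The T and NK cell markers show low and high mice much like the interferon-induced genes, but with heterozygous 3 inside the wild-type range.

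The mean level of T and NK cell markers varied much like that of the interferon-induced genes from mouse to mouse, apart from heterozygous 3. The 8 tested markers were lower for 8 of 8 in mutant and 7 of 8 in heterozygous colons against wild-type, with median log2 fold changes of -0.80 and -0.54 and 0 called. Their mean level was 8.61, 7.81 and 7.26 in mutant mice, 7.10, 8.79 and 8.38 in heterozygous mice and 9.15, 8.66 and 8.20 in wild-type mice. Heterozygous 3 thus lay inside the wild-type range, whereas its mean of the interferon-induced genes, 8.68, was below every wild-type mouse. The summed signal of the 13 measured markers ran from 1563 to 4273 in mutant, from 1442 to 4656 in heterozygous and from 3137 to 5798 in wild-type mice, and no marker was at 0. Cd8a, a coreceptor of cytotoxic T cells, had log2 fold changes of -1.23 and -0.76, and Cd3d, a subunit of the T cell receptor complex, of -0.82 and -0.38, while those of Klrd1 were -0.38 and 0.12. For Cd3d, Cd8a, Gzma, Nkg7 and Ccl5, mutant 2, mutant 3 and heterozygous 1 lay below the wild-type range. Cd3e, Thy1 and Klrd1 departed from this. Cd3e read 223.1 in mutant 3 and 222.2 in wild-type 3. For Thy1 and Klrd1, mutant 2, at 534.2 and 139.8, lay inside the wild-type range. Heterozygous 2, at 407.5, lay below that of Thy1. Among markers too dim to be tested, Cd4 and Cd247 had higher mean signals in both carrier genotypes than in wild-type colons. Cd3g and Gzmb had lower ones in both, and Cd2 only in mutant colons. The part of these cells in the interferon-induced signal was not tested.

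In their mean level, B and plasma cell markers put some of the same mice low, mainly through 1 Ighm probe set. The mean level of the 3 tested markers (Ighm, Jchain and Pou2af1) was 11.0, 8.53 and 8.09 in mutant mice, 8.39, 10.7 and 10.9 in heterozygous mice and 10.9, 10.6 and 10.4 in wild-type mice, so that mutant 2, mutant 3 and heterozygous 1 were the lowest. On its brightest probe set, Ighm, an immunoglobulin heavy chain gene, had log2 fold changes of -3.89 and -1.61 (SE 1.91) in mutant and heterozygous colons. Several other tested Ighm probe sets had mutant 2, mutant 3 and heterozygous 1 as the highest mice. The log2 fold changes of Pou2af1, a transcription coactivator of B cells, were -0.15 and -0.19, with the same 3 mice lowest. Those of Jchain were -0.13 and -0.082, and its deposited signal in heterozygous 1, 5567.6, exceeded that in wild-type 2 and 3. The summed signal of the 7 measured markers ran from 4348 to 10612 in mutant, from 6010.3 to 8198 in heterozygous and from 6406 to 10746 in wild-type mice, and none was at 0. The part of these cells in the interferon-induced signal was not tested.

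The 9 tested macrophage and monocyte markers (Mrc1, Lyz2 and Cd68 first by p) had medians of -0.26 in mutant and -0.094 in heterozygous colons, and the 2 dendritic cell markers (Itgax and Zbtb46) had -0.19 and -0.16. The only tested follicle marker, Cxcl13, had -0.19 and -0.38. None of the 4 measured neutrophil markers was bright enough to be tested, with signals of 0.2 to 38.2. The 10 colon epithelial markers (Fcgbp, Aqp8 and Vil1 first by p) had medians of 0.0027 and -0.050, the 3 tested small intestinal markers (Fabp2, Apoa1 and Fabp6) 0.038 and -0.025, the 5 smooth muscle markers (Cnn1, Des and Tagln first by p) -0.092 and -0.21, and the 4 adipocyte markers (Fabp4, Cidec and Adipoq first by p) -0.63 and -0.11. No gene of these lists, B and plasma cell markers included, was called in either comparison with wild-type.

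The beta-actin ratio and the array's median signal followed the replicate number in every genotype. The ratio was 4.45 to 5.02 on the arrays numbered 1, 3.05 to 3.75 on those numbered 2 and 2.52 to 2.73 on those numbered 3, and the median signal was 129.4 to 136.1, 147.6 to 156.6 and 158.2 to 162.2. Each number holds 1 mouse of each genotype. Within numbers 1, 2 and 3, the median log2 difference of the 28 genes was -0.34, -0.87 and -0.97 for mutant minus wild-type, with 26, 26 and 27 genes lower in the mutant mouse. For heterozygous minus wild-type it was -1.91, 0.33 and -0.50, with 28, 5 and 25 genes lower, so the mice numbered 2 had the opposite direction. Each of these differences sets 1 mouse against 1 mouse, and pairing by number was not established. The same shares over all probe sets were not counted. The part of RNA shortening in the signals of these genes was not tested.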

How the data were processed

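Total RNA of about 50 ng per proximal colon was amplified, labelled and hybridised to 1 Affymetrix array per mouse, per the labels' protocols. The authors deposited linear signal intensities, 1 for each probe set on each array. GCOS, the Affymetrix operating software, is the tool named, per the submitters' processing notes, with neither a version nor a scaling stated there. Of 22690 probe sets, 64 controls were left out. Values were log2 transformed after adding 16, which shrinks fold changes where the signal is low, and were then quantile normalized. Probe sets under the 40th percentile of the mean over the 9 arrays were left out, and 13576 were tested with limma 3.58.1 (R 4.3.3; lmFit, then eBayes with a trend). A single fit held the 9 arrays without covariates and gave 3 comparisons, with Benjamini-Hochberg adjustment over all tested probe sets within each comparison and a threshold of 0.05. Levels per mouse, means and SDs are deposited linear signals unless called normalized; fold changes are on the normalized log2 scale.

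The platform's annotation, parts of which may be outdated, gave the gene names. Of 194 genes on 15 lists beside the members (interferons, receptors and signalling, inducers, further induced genes, antigen presentation and 10 lists of cell type markers), 155 were found by symbol, 1 through a synonym and 38 not at all here. The members, roles and lists were chosen with earlier results of these data known. Per role group, up to 3 tested members with the smallest unadjusted p over the 3 comparisons have their values given by mouse, and of each other list up to 3 tested genes are named by the same rule; the further genes named stand out by their values and were named after those were seen. Motifs were searched by exact letters on both strands. Alternatives were other normalizations, filters, pseudocounts and variance models, array weights, only the 2 genotypes compared, a replicate block, the median over probe sets, each array left out, and the 3 arrays numbered 1 left out. Figures were drawn with Python 3.11.15 and matplotlib 3.10.9.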

Additional observations from a re-analysis of the deposited data

How the results depend on the processing

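No interferon-induced gene was called by limma in any of the 3 comparisons under any alternative that gave a test, and of the named genes the smallest adjusted p was 0.103 (Cxcl10 in heterozygous against wild-type, with array weights). Of 840 values of named genes under the alternatives, 833 kept their direction and their side of the threshold and 7 turned direction. With array weights, Ifih1 and Irf1 in mutant against wild-type turned to 0.018 and 0.11. Without the 3 arrays numbered 1, Cxcl9, Irf9 and Zbp1 in heterozygous against wild-type turned to 0.35, 0.090 and 0.072. Leaving out single arrays, Irf1 in mutant against wild-type ranged from -0.23 to 0.10 and Cxcl9 in heterozygous against wild-type from -1.55 to 0.070.

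Counts over all probe sets moved more. In mutant against wild-type, 3 calls became 9 with array weights, 9 without the 3 arrays numbered 1 and 5 with the replicate block. In heterozygous against wild-type, 0 became 134 with array weights, of which 50 were lower and 84 higher, and ranged from 0 to 3 without single arrays. In mutant against heterozygous, 3 became 8 with the replicate block and 5 with only these 2 genotypes fitted, and ranged from 1 to 7 without single arrays. The number of interferon-induced genes lower in mutant than in heterozygous colons, 12 of 28, became 22 with array weights and 27 without the 3 arrays numbered 1, where the median was -0.83, and ranged from 2 to 26 without single arrays. Of the 20 named genes, 12 in mutant and 18 in heterozygous against wild-type moved by over 1.5 times without some single array. The labels do not say that a replicate number marks a shared batch or litter. Correlations of the deviations of same-numbered mice were -0.05 to 0.31 for number 1, -0.06 to 0.03 for number 2 and 0.22 to 0.46 for number 3, and 6 of 9 mice correlated best with a mouse of their own number. The beta-actin ratio and the median signal did follow the number without overlap. With these uneven correlations and labels, pairing was not established and was not used in the main fit. The replicate block moved no call of an interferon-induced gene. Array weights gave wild-type 2 a weight of 8.64 and the other arrays 0.45 to 1.36. The cause of these shifts was not tested. With 3 arrays a genotype and a wide spread within genotypes, a p that missed the threshold does not show equal levels, and signals near the Bacillus controls carry no direction.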

Other observations

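Ighm, the gene of the immunoglobulin M heavy chain, had its brightest probe set at 2864.8, 15.9 and 2.6 in mutant mice, 10.6, 2328.0 and 2831.4 in heterozygous mice and 2303.2, 1901.7 and 1255.3 in wild-type mice. The 3 lowest mice, mutant 2, mutant 3 and heterozygous 1, are also the 3 with the lowest mean level of the interferon-induced genes. Of 8 tested Ighm probe sets, only this 1 had those 3 mice lowest, and several others had them highest. On 1 of these others, mutant 2, mutant 3 and heterozygous 1 read 596.9, 476.0 and 267.7, against 44.0 to 234.9 in the remaining mice. Heterozygous 3, which was below the wild-type range for 23 of 28 interferon-induced genes, was above it on the brightest Ighm probe set. Adipocyte markers followed another order, with mutant 1 the lowest mouse at a mean normalized log2 level of 8.90, against 10.1 to 10.7 in the other 8 mice.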
